A study of Mus musculus with 6 samples.

Results

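Sphingolipid and glycosphingolipid metabolism was followed through 47 genes listed by symbol, and 42 of them were among the 16619 genes of the expression table. The genes were grouped by role into synthesis (17 of 19 listed genes present), breakdown (15 of 17), glycosylation (6 of 7) and sphingosine-1-phosphate (S1P) receptors and export (all 4 present). Sptssb, Sptlc3, Acer1, Sgpp2 and Ugt8a were not in the table and were not analysed here. Cers1 was present but too low to be tested, so 41 genes entered the comparison of genotypes.

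Polyadenylated RNA was sequenced from white adipose tissue of 6-month-old female mice, with 3 wild-type (WT) and 3 adipocyte-specific Prmt5 knockout (Prmt5AKO) libraries. Both genotypes carried loxP-flanked Prmt5 alleles (Prmt5 flox/flox), and the knockout mice also carried Adipoq-Cre, a recombinase driven by the adiponectin promoter. Cre therefore acts in adipocytes, and the other cells of the depot keep Prmt5, which encodes an arginine methyltransferase. The depot is named eWAT, with "epididymal" as its label although the mice were female. The sources do not say that each library came from a separate mouse. The tests therefore set the genotype difference against the variation between libraries, which may be technical in part.

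Sphingolipids are built on a long-chain base that serine palmitoyltransferase makes from serine and a fatty acyl-CoA. Acylation and desaturation turn the base into ceramide, which is the hub of the pathway: head groups added to it give sphingomyelin or the glycosphingolipids, and ceramidases return it to sphingosine, which can be phosphorylated to the signalling lipid S1P. In adipose tissue, ceramides are known for their links to insulin action and mitochondrial function, and sphingomyelin is a main lipid of the adipocyte plasma membrane.

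The libraries held 18731215 to 27445096 reads assigned to genes, and 16398 to 16612 genes were detected in each. Prmt5 itself measured 36.6, 59.7 and 39.7 CPM (a read count scaled to the size of its library) in WT and 14.6, 22.0 and 28.5 CPM in Prmt5AKO, so the genotypes did not overlap (45.3 ± 12.6 against 21.7 ± 6.98 CPM, SD, n = 3 each; exact two-sided permutation p = 0.1, the smallest that 3 against 3 libraries allow). Its count covers the whole gene, not the loxP-flanked part alone. On the first principal component, which carried 64.5% of the variance of all genes tested, Prmt5AKO replicate 1 (score 53.3) lay between WT replicates 1 (74.6) and 3 (40.2), whereas WT replicate 2 (-26.1) lay nearest to Prmt5AKO replicates 2 (-61.0) and 3 (-81.0). The summed level of 6 RNAs in the table, of 8 listed as nuclear-retained, moved as on the first component, at 2128, 749 and 1693 CPM in WT and 2092, 181 and 176 CPM in Prmt5AKO. Malat1 and Neat1 made up most of this sum. Gas5 (61.0, 87.7 and 106 CPM in WT and 63.5, 40.2 and 34.4 CPM in Prmt5AKO) and the low Mirg did not follow it. On the second component the WT libraries scored -8.89, -33.2 and -30.3 and the Prmt5AKO libraries 49.3, 12.8 and 10.2, without overlap. There Prmt5AKO replicate 1 lay farthest from WT, and its Prmt5 level was the lowest of the 6 libraries. Because this library stood with WT libraries on the first component, the main counts and the leading genes are given with and without it. The part of the library split in any result below was not tested beyond leaving out single libraries.

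No sphingolipid gene passed the threshold of the genotype comparison. With limma on log2(CPM + 0.5), Benjamini-Hochberg adjustment over all 16109 genes tested and a call at an adjusted p under 0.05 with a log2 fold change beyond 0.5, 0 of the 41 genes were called, against 0.0% of all genes. limma-voom, the quasi-likelihood and likelihood ratio tests of edgeR, and DESeq2, each on recovered reads with genotype as the single term, also called 0 of the 41, beside 0.0%, 0.0%, 1.01% and 1.87% of all genes. With the replicate number as a further term, the edgeR likelihood ratio test called 1 of the 41 (Smpd1, adjusted p = 0.0229), beside 4.26% of all genes. At an unadjusted limma p under 0.05 there were 7 genes (17.1%), of which Cers4, Degs2 and Smpd1 were higher and Sgms2, Smpd3, Acer2 and S1pr1 lower in Prmt5AKO, beside 8.72% of all genes tested (4.79% higher and 3.93% lower). The smallest adjusted p among the 41 genes was 0.435 (limma), and their median log2 fold change was -0.11, beside -0.03 for all genes tested.

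The counts moved strongly with single libraries. At an unadjusted p under 0.05 there were 16 of 41 genes without Prmt5AKO replicate 1 (39.0%, beside 35.3% of all genes), 4 higher and 12 lower, and they included 6 of the 7 above, Degs2 being the exception. Without WT replicate 2 the count was 5 of 41, beside 12.4% of all genes. Without WT replicate 1, WT replicate 3, Prmt5AKO replicate 2 or Prmt5AKO replicate 3 the count was 4, 2, 3 and 2 of 41, beside 4.81%, 3.98%, 4.56% and 4.78% of all genes. The median log2 fold change of the 41 genes was 0.083 without Prmt5AKO replicate 1, so its sign depended on that library.

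Separation of the libraries gave a second, test-free description. For 11 of the 41 genes (26.8%) every Prmt5AKO library lay on the same side of every WT library, 4 above (Cers4, Degs2, Sphk1, B4galt5) and 7 below (Sptlc2, Kdsr, Sgms2, Smpd3, Asah1, Acer2, S1pr1), beside 14.4% of all genes tested (8.16% above and 6.28% below). Without Prmt5AKO replicate 1 this held for 29 of 41 genes (70.7%), 12 above and 17 below, beside 56.8% of all genes. Of the 41 genes, 18 had a positive and 23 a negative log2 fold change.

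**Figure D1:**
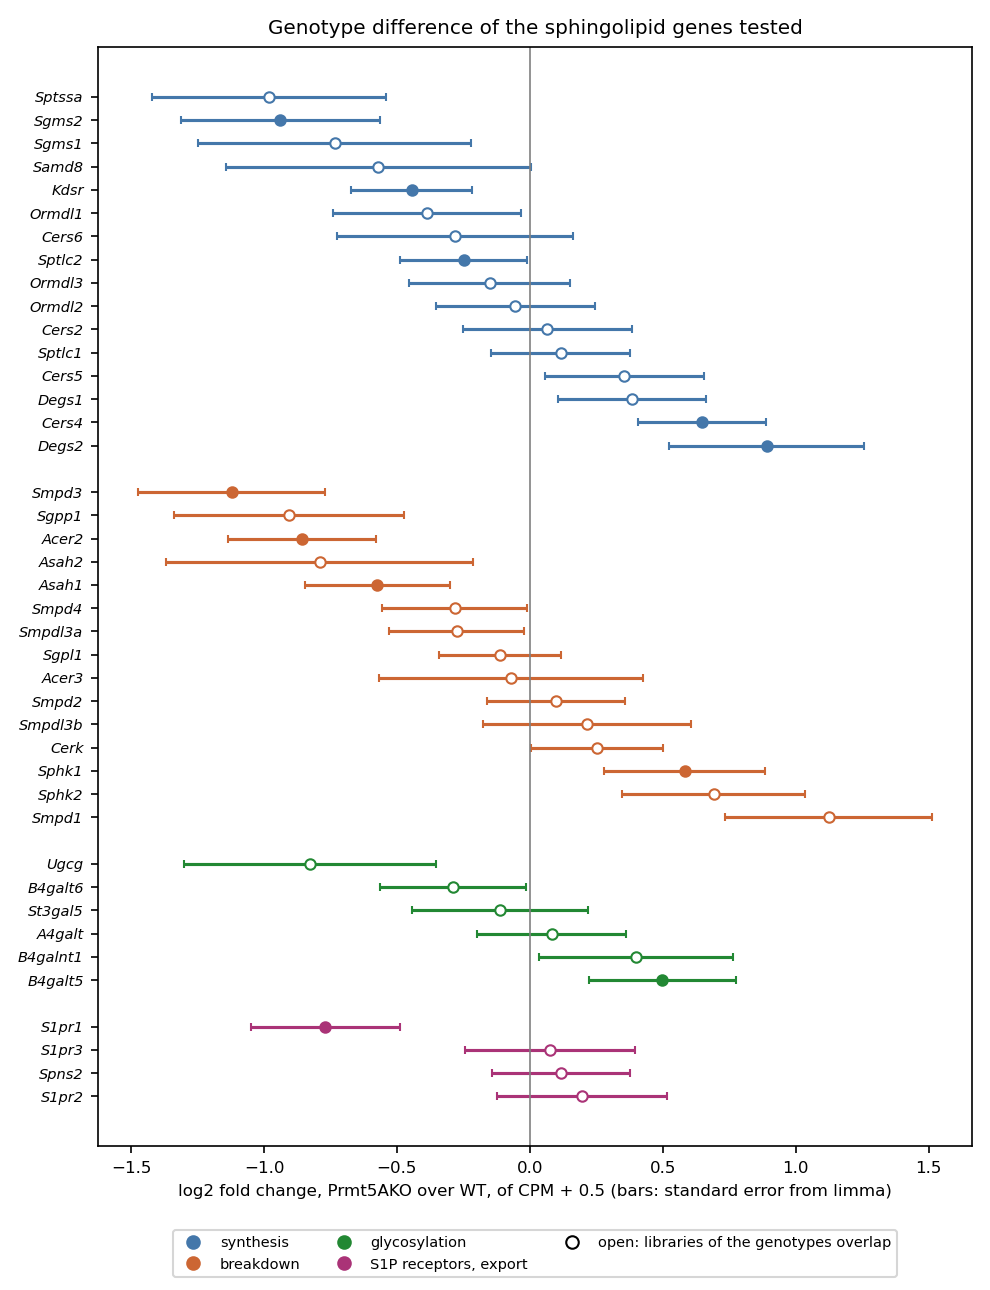
Log2 fold change of Prmt5AKO over WT (x axis, on the log2(CPM + 0.5) scale) for the 41 sphingolipid genes tested, by role (colour), with limma standard errors as bars. Filled points mark the 11 genes whose genotypes did not overlap; estimates run from -1.12 (Smpd3) to 1.12 (Smpd1), and none of the 41 passed the adjusted threshold.

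Levels are first compared between genes, per kilobase of exon and over all 6 libraries. The length is the union of a gene's annotated exons, whether used here or not, so the order depends on it. Ormdl3, an inhibitory partner of serine palmitoyltransferase, was the most abundant at 142 ± 25.7 CPM per kilobase (SD, n = 6 libraries of both genotypes), above every other member. Degs1, the desaturase of the last step to ceramide, followed at 62.6 ± 14.2 CPM per kilobase, and Cers2, the synthase of ceramides with very long acyl chains, at 49.5. Smpdl3a (43.4) and Smpd1 (43.1 ± 24.9) could not be separated from Cers2 by their spread. The lowest were Degs2 (0.27), Sgms2 (0.25) and Cers1 (0.14 CPM per kilobase). Each of the remaining roles had a lower ceiling, with A4galt highest among the glycosyltransferases and S1pr1, at 24.3 CPM per kilobase, highest among the S1P genes.

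**Figure D2:**
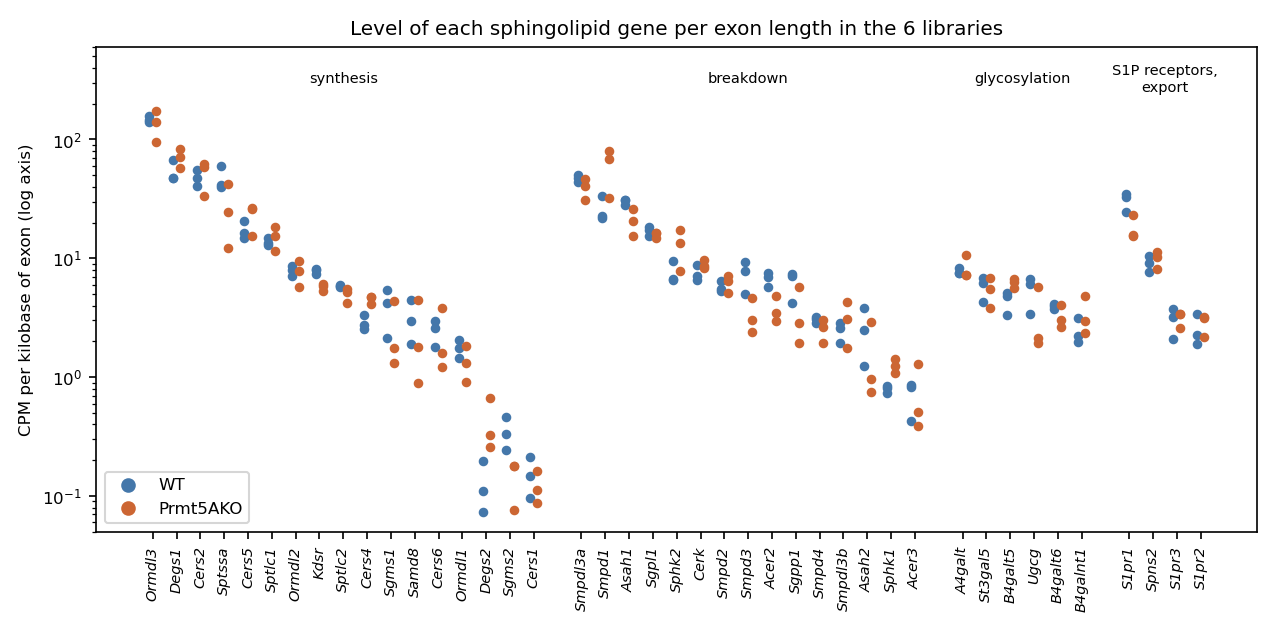
Level of each of the 42 sphingolipid genes in CPM per kilobase of exon (y axis, log scale), with a point for each of the 6 libraries (WT blue, Prmt5AKO orange) and genes ordered by mean level within each role. Ormdl3 lies highest at a mean of 142 and Cers1 lowest at 0.14; for most genes the points of the genotypes overlap.

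Synthesis starts with serine palmitoyltransferase. Its catalytic subunit gene Sptlc2 (chr12:87305058-87388355, minus strand, GRCm38) measured 47.8, 48.5 and 46.2 CPM in WT and 44.4, 42.0 and 34.0 CPM in Prmt5AKO. All 3 knockout libraries lay below the WT libraries, although the nearest values, 46.2 and 44.4 CPM, were close, and the log2 fold change was -0.25 ± 0.24 (SE, limma adjusted p = 0.66), or -0.33 without Prmt5AKO replicate 1 and -0.14 without Prmt5AKO replicate 3. Sptlc1, the partner subunit, overlapped between genotypes, at 46.3 to 52.4 CPM in WT and 41.4 to 65.6 in Prmt5AKO. The small subunit gene Sptssa, which activates the enzyme, spanned 60.1 to 90.6 CPM in WT and 18.5 to 63.5 in Prmt5AKO, the widest range of the subunits, with Prmt5AKO replicate 1 among the WT values.

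The ORMDL genes encode proteins of the endoplasmic reticulum that hold serine palmitoyltransferase in check. Ormdl3 measured 316, 342 and 309 CPM in WT and 209, 377 and 309 CPM in Prmt5AKO. The knockout libraries lay on both sides of the WT range, and the log2 fold change of -0.15 ± 0.30 (SE) changed sign without Prmt5AKO replicate 1 (0.083). Ormdl1 lay at 6.83 to 9.64 CPM in WT and 4.30 to 8.67 in Prmt5AKO. Ormdl2 lay at 11.9 to 14.3 and 9.65 to 15.9 CPM, but 66.7% of its exon length is shared with Dnajc14, and whether reads were counted by strand is not given in the sources used here.

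Kdsr reduces the first product, 3-ketodihydrosphingosine, to the long-chain base. It measured 64.7, 60.0 and 66.1 CPM in WT and 47.4, 49.1 and 43.3 CPM in Prmt5AKO, with little spread within either genotype (63.6 ± 3.22 and 46.6 ± 2.95 CPM, SD, n = 3 each). The genotypes did not overlap, and the gap between the nearest values, 60.0 and 49.1 CPM, exceeded the range within either genotype. The log2 fold change was -0.45 ± 0.23 (SE, limma unadjusted p = 0.085, adjusted p = 0.60), and it was -0.46 without Prmt5AKO replicate 1.

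Ceramide synthases attach the acyl chain, and each has its own preference for chain length. Cers4, a synthase of long-chain ceramides, measured 40.9, 31.4 and 34.0 CPM in WT and 57.6, 58.2 and 51.0 CPM in Prmt5AKO. All 3 knockout libraries were above all WT libraries, Prmt5AKO replicate 1 as much as the others, and the log2 fold change of 0.65 ± 0.24 (SE, limma unadjusted p = 0.027, adjusted p = 0.51) was 0.62 without that library. Without WT replicate 2 it was 0.57 (limma unadjusted p = 0.11). Of the exon length of Cers4, 9.0% is shared with models on the opposite strand.

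The other ceramide synthase genes overlapped between genotypes. Cers2 lay at 149 to 204 CPM in WT and 123 to 228 in Prmt5AKO. Cers5 lay at 52.9 to 73.5 and 54.7 to 94.2 CPM, and Cers6, which like Cers5 favours palmitoyl-CoA, at 15.97 to 26.2 and 10.9 to 34.0 CPM. Cers1, a synthase best known from brain and muscle, stayed at 0.30 to 0.68 CPM in WT and 0.28 to 0.52 in Prmt5AKO (6 to 19 reads a library), and 42.7% of its exon length is shared with other genes. Of the summed level per kilobase of these 5 synthase genes, Cers2 made up 65.5%, 68.8% and 68.3% in WT and 58.2%, 63.9% and 66.4% in Prmt5AKO. The Cers4 share overlapped between genotypes on this scale, at 5.39%, 3.17% and 4.02% against 8.16%, 5.18% and 4.46%, while Cers5 took 24.1%, 25.7% and 23.6% in WT and 26.8%, 29.0% and 27.6% in Prmt5AKO without overlap. These shares were chosen after the values were seen and were not tested. They divide by the union of annotated exons, 12.3 kilobases for Cers4 beside 3.68 for Cers2 and 3.54 for Cers5. Which of these exons the transcripts here use was not examined, so the size of the shares depends on that length.

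Desaturation of dihydroceramide completes ceramide. Degs1 measured 124, 175 and 124 CPM in WT and 150, 217 and 184 CPM in Prmt5AKO, and the genotypes overlapped (log2 fold change 0.38 ± 0.28, SE). Degs2, whose product also hydroxylates dihydroceramide to phytoceramide, was near the filter, at 0.51, 0.19 and 0.28 CPM in WT and 1.72, 0.67 and 0.85 CPM in Prmt5AKO, or 5 to 12 and 15 to 37 reads a library. Its libraries did not overlap and the log2 fold change was 0.89 ± 0.37 (SE, limma unadjusted p = 0.041, adjusted p = 0.55). At this low level the size depended on the scale, from 0.39 with a pseudocount of 2 CPM and 1.43 with 0.1 CPM to 1.67 (limma-voom), 1.71 (edgeR) and 1.73 (DESeq2) on recovered reads. The highest value was that of Prmt5AKO replicate 1, without which the log2 fold change was 0.62 with an unadjusted limma p of 0.12, and 10.8% of its exon length lies within Evl on the opposite strand.

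Sphingomyelin synthases move phosphocholine onto ceramide. Sgms2, the form at the plasma membrane, measured 2.90, 2.08 and 1.53 CPM in WT and 1.11, 1.11 and 0.47 CPM in Prmt5AKO. The genotypes did not overlap (log2 fold change -0.94 ± 0.37, SE; limma unadjusted p = 0.036, adjusted p = 0.54), at 43 to 68 reads a library in WT and 10 to 25 in Prmt5AKO. The log2 fold change was -1.06 without Prmt5AKO replicate 1 (limma unadjusted p = 0.029) and -0.69 without Prmt5AKO replicate 3 (limma unadjusted p = 0.12). It was -0.52 with a pseudocount of 2 CPM. The Golgi form, Sgms1, lay at higher CPM values, from 22.4 to 57.0 in WT and 13.8 to 46.4 in Prmt5AKO, with Prmt5AKO replicate 1 within the WT range and the others below it. Samd8, which makes the related lipid ceramide phosphoethanolamine, lay at 14.6 to 33.8 CPM in WT and 6.85 to 34.3 in Prmt5AKO, with Prmt5AKO replicate 1 highest of all 6 libraries.

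**Figure D3:**
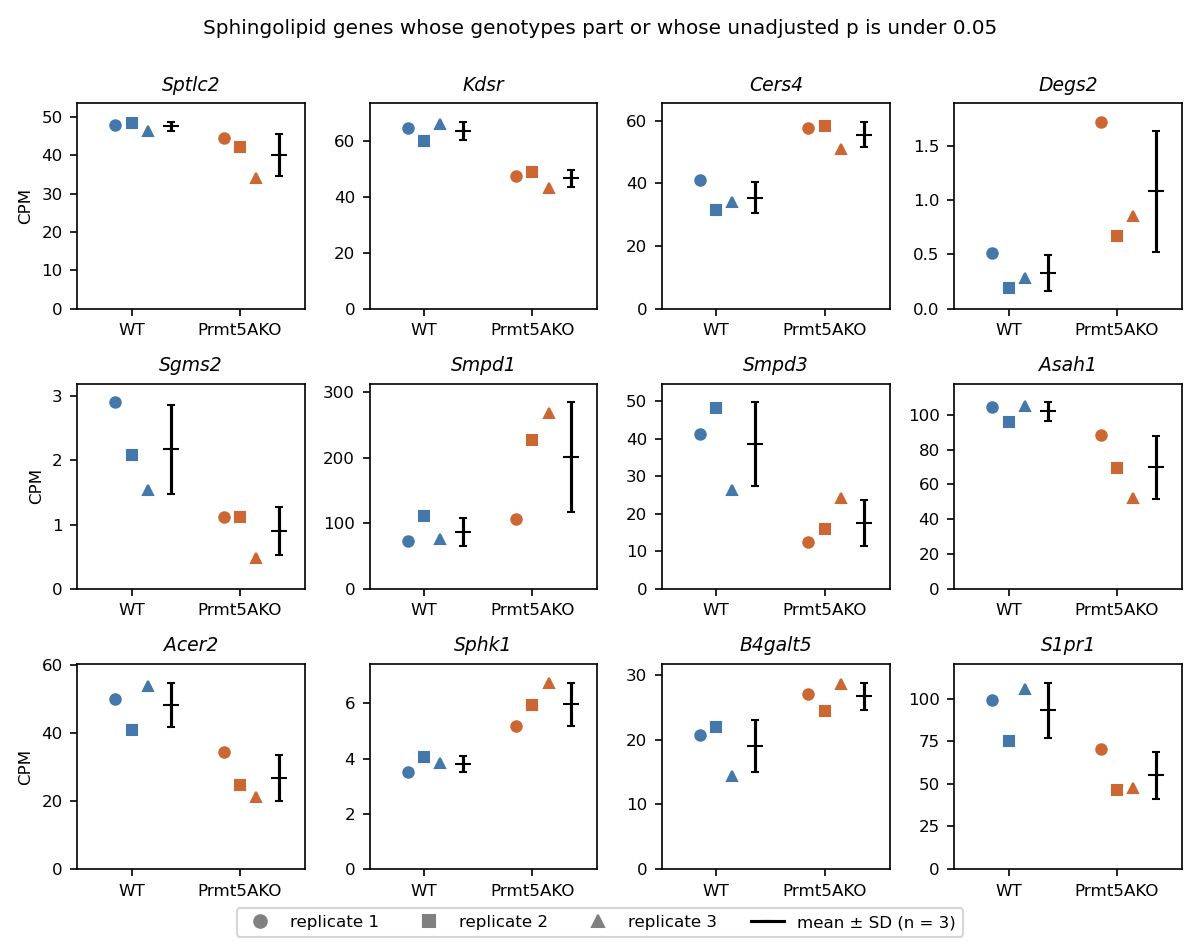
CPM (y axes, from 0) of the 12 sphingolipid genes whose genotypes did not overlap or whose unadjusted limma p was under 0.05, with a point for each library (WT blue, Prmt5AKO orange, symbols for replicates) and the mean ± SD beside them. Smpd1 is the single gene of the 12 whose genotypes overlap: Prmt5AKO replicate 1 (107) lies below WT replicate 2 (112), and the other knockout libraries stand at 227 and 268.

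Breakdown begins with the sphingomyelinases, which return sphingomyelin to ceramide at different sites in the cell. Smpd1, the acid sphingomyelinase of lysosomes, measured 73.3, 112 and 75.8 CPM in WT and 107, 227 and 268 CPM in Prmt5AKO. Prmt5AKO replicates 2 and 3 were above every WT library and Prmt5AKO replicate 1 was within the WT range. The log2 fold change was 1.12 ± 0.39 (SE, limma unadjusted p = 0.020, adjusted p = 0.48), and it was 1.53 without Prmt5AKO replicate 1 (limma adjusted p = 0.054, with 84 of all genes called in that fit). It was 0.86 without Prmt5AKO replicate 3 (limma unadjusted p = 0.074). Cd68, a lysosomal protein of macrophages, measured 30.0, 63.6 and 33.1 CPM in WT and 76.2, 80.3 and 91.2 CPM in Prmt5AKO. Of the 10 macrophage markers, Cd68 and Itgax were higher without overlap (8.16% of all genes) and at an unadjusted limma p under 0.05 (4.79%). The others overlapped, Mrc1 had an estimate of -0.66, and the median log2 fold change of the list was 0.465. The 10 macrophage markers summed to 1239 to 2494 CPM in WT and 1868 to 3235 in Prmt5AKO. The part of macrophages in the Smpd1 values was not tested.

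Smpd3 encodes a neutral sphingomyelinase of the plasma membrane and Golgi (chr8:106252548-106337988, minus strand, GRCm38). It measured 41.2, 48.3 and 26.4 CPM in WT and 12.6, 15.8 and 24.3 CPM in Prmt5AKO. The genotypes did not overlap, though Prmt5AKO replicate 3 and WT replicate 3 came close. It had the smallest p of the 41 genes, with a log2 fold change of -1.12 ± 0.35 (SE, limma unadjusted p = 0.013, adjusted p = 0.435), and -0.92 without Prmt5AKO replicate 1. Prmt7 covers 4.7% of its exon length on the opposite strand.

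The level of Smpd1 relative to Smpd3, both per kilobase of exon, separated the genotypes widely. The ratio was 2.79, 3.63 and 4.50 in WT and 13.3, 22.5 and 17.3 in Prmt5AKO, or 3.64 ± 0.854 against 17.7 ± 4.64 (SD, n = 3 each). Prmt5AKO replicate 1 had the lowest ratio of the knockout libraries, 13.3, which was above every WT library although its Smpd1 level was not. Its Smpd3 level was the lowest of the 6 libraries. The pair was chosen after the values were seen, and the ratio was not tested.

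**Figure D4:**
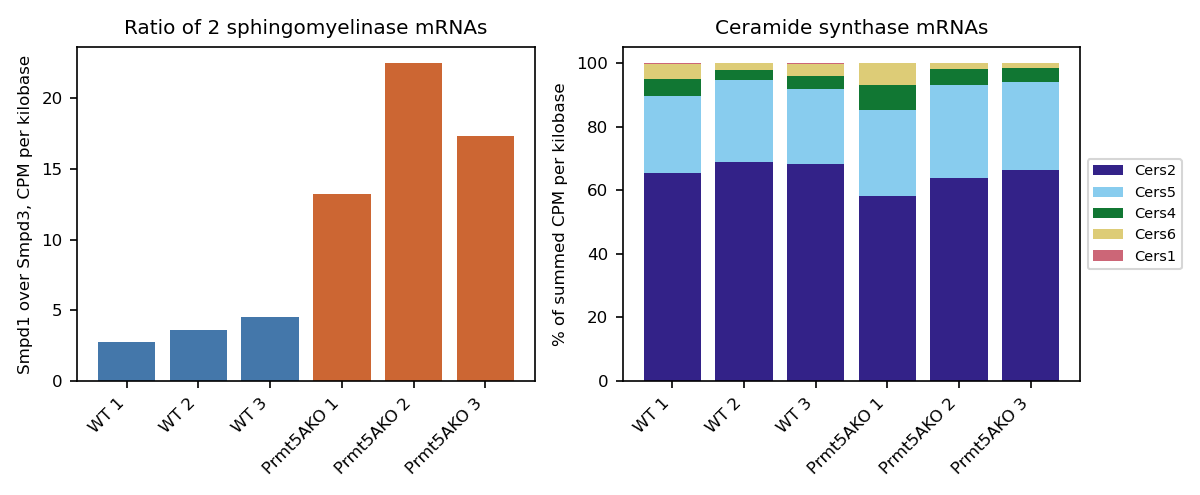
Left, ratio of Smpd1 to Smpd3 in CPM per kilobase of exon (y axis, from 0) in each library, which runs from 2.79 to 4.50 in WT (blue) and from 13.3 to 22.5 in Prmt5AKO (orange). Right, share (%) of each ceramide synthase gene in their summed CPM per kilobase, in which Cers2 holds 58.2% to 68.8% and Cers5 23.6% to 29.0%.

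The other sphingomyelinases and their relatives overlapped between genotypes. Smpd2, a neutral enzyme, lay at 23.6 to 28.7 CPM in WT and 22.8 to 31.4 in Prmt5AKO, with 20.3% of its exon length shared with other genes. Smpd4, a neutral enzyme of the endoplasmic reticulum and nuclear envelope, lay at 25.8 to 29.1 and 17.4 to 27.2 CPM. Smpdl3a and Smpdl3b resemble acid sphingomyelinase in sequence, and Smpdl3a is known as a secreted phosphodiesterase that cleaves nucleotides. Smpdl3a measured 104, 91.1 and 97.2 CPM in WT and 84.4, 96.2 and 63.9 CPM in Prmt5AKO (log2 fold change -0.28 ± 0.26, SE), and Smpdl3b lay at 3.88 to 5.72 and 3.53 to 8.55 CPM.

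Ceramidases release sphingosine from ceramide. Acer2, the alkaline ceramidase of the Golgi, measured 50.01, 41.0 and 53.8 CPM in WT and 34.3, 24.7 and 21.3 CPM in Prmt5AKO, so that all 3 knockout libraries lay below the WT libraries. The log2 fold change was -0.86 ± 0.28 (SE, limma unadjusted p = 0.015, adjusted p = 0.45) and -1.05 without Prmt5AKO replicate 1. It was -0.71 without Prmt5AKO replicate 3 (limma unadjusted p = 0.058). Asah1, the acid ceramidase of lysosomes, measured 105, 95.8 and 105 CPM in WT and 88.3, 69.2 and 51.9 CPM in Prmt5AKO, again without overlap (log2 fold change -0.57 ± 0.27, SE; limma unadjusted p = 0.067, adjusted p = 0.59). Its log2 fold change was -0.76 without Prmt5AKO replicate 1 (limma unadjusted p = 0.015) and -0.38 without Prmt5AKO replicate 3. Smpd1 and Asah1, enzymes of consecutive lysosomal steps, thus had estimates of opposite sign, 1.12 and -0.57.

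The remaining ceramidase genes overlapped between genotypes. Asah2, the neutral ceramidase, spanned 14.4 to 44.0 CPM in WT and 8.74 to 34.1 in Prmt5AKO, with a standard error of 0.58 that was the largest of the 41 genes. Acer3, another alkaline ceramidase, spanned 6.51 to 13.1 CPM in WT and 5.90 to 19.9 in Prmt5AKO. In both genes, WT replicates 1 and 3 and Prmt5AKO replicate 1 were high and the other 3 libraries low, as on the first principal component. Prmt5AKO replicate 1 was the highest knockout library and WT replicate 2 the lowest WT library in 12 of the 41 genes. That is 29.3%, beside 32.9% of all genes tested. Degs2, Acer2, Asah1 and S1pr1, whose genotypes did not overlap, were among the 12. The part of the library split in their differences was not tested beyond leaving out single libraries.

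Of the 4 genes with the smallest unadjusted p (Smpd3, Acer2, Smpd1 and S1pr1), Acer2 and Smpd1 carry promoter entries in RefSeq, so their start regions (250 bases before to 50 after the start, GRCm38.p6, plus strand, 5′ to 3′) are shown. Of the 42 genes, 36 matched an entry. Capitals mark matches, on either strand, to the GC box GGGCGG and the CCAAT box CCAAT; the E-box CACGTG and the TATA box TATAAA were also searched.
Acer2, chr4:86874164-86874463: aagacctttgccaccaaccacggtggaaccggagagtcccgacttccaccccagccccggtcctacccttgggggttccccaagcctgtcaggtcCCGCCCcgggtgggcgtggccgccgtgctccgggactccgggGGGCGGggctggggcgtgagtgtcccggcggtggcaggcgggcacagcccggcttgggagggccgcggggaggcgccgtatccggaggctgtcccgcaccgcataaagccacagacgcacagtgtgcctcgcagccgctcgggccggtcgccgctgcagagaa
Smpd1, chr7:105554110-105554409: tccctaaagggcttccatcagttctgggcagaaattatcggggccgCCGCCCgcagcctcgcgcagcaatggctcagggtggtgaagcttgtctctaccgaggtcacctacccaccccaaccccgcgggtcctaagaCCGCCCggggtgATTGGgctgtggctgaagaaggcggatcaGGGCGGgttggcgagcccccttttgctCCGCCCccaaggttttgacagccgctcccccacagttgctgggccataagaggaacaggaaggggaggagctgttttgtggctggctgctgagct
The Acer2 window held 2 GC boxes and none of the other motifs, with a GC content of 73%, and the Smpd1 window held 4 GC boxes and 1 CCAAT box, with a GC content of 63%. Among 32851 promoter windows of the same length, 35.7% held a GC box, 37.4% a CCAAT box, 7.15% the E-box and 13.6% the TATA box. A match describes these letters alone.

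Sphingosine and ceramide can be phosphorylated, and S1P is then cleaved or dephosphorylated. Sphk1, a cytosolic sphingosine kinase, measured 3.50, 4.05 and 3.84 CPM in WT and 5.20, 5.93 and 6.75 CPM in Prmt5AKO. The genotypes did not overlap, with a narrow WT range (log2 fold change 0.58 ± 0.30, SE, limma unadjusted p = 0.090, adjusted p = 0.60), and the log2 fold change was 0.67 without Prmt5AKO replicate 1. It was 0.50 without Prmt5AKO replicate 3. The other kinase gene, Sphk2, lay at 27.6 to 39.9 CPM in WT and 32.7 to 71.6 in Prmt5AKO, with 21.9% of its exon length shared with other genes. Cerk, the ceramide kinase, lay at 31.4 to 42.6 and 40.0 to 46.95 CPM.

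The genes that remove S1P inside cells overlapped between genotypes. Sgpl1, the lyase that ends the pathway, was among the steadiest of the list, at 95.3 to 113 CPM in WT and 90.3 to 101 in Prmt5AKO (log2 fold change -0.11 ± 0.23, SE). Sgpp1, an S1P phosphatase, spanned 23.5 to 41.5 CPM in WT and 10.9 to 32.2 in Prmt5AKO, with Prmt5AKO replicate 1 within the WT range and replicates 2 and 3 below it.

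Glycosylation had no gene at an unadjusted p under 0.05 among the 6 tested. Ugcg, which adds glucose to ceramide and opens the glycosphingolipid branch, lay at 17.7 to 35.1 CPM in WT and 10.1 to 30.1 in Prmt5AKO, with Prmt5AKO replicate 1 again within the WT range. B4galt5, a lactosylceramide synthase, measured 20.7, 22.0 and 14.4 CPM in WT and 27.0, 24.4 and 28.7 CPM in Prmt5AKO. It was the single glycosylation gene without overlap (log2 fold change 0.50 ± 0.28, SE, limma unadjusted p = 0.11, adjusted p = 0.60), and its log2 fold change was 0.49 without Prmt5AKO replicate 1 and 0.32 without WT replicate 3. B4galt6, the other lactosylceramide synthase, lay at 21.6 to 23.9 CPM in WT and 15.4 to 23.5 in Prmt5AKO, with an estimate of the opposite sign (-0.29 ± 0.27, SE).

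Past lactosylceramide the pathway divides into gangliosides and globosides. St3gal5, the sialyltransferase that opens the ganglioside branch, measured 11.3, 16.3 and 17.9 CPM in WT and 10.1, 17.7 and 14.4 CPM in Prmt5AKO. A4galt, the galactosyltransferase that opens the globoside branch, measured 17.2, 19.0 and 17.1 CPM in WT and 16.5, 24.4 and 16.5 CPM in Prmt5AKO. For both genes the ranges overlapped and the estimates, -0.11 ± 0.33 and 0.08 ± 0.28 (SE), were smaller than their errors and changed sign when a single library was left out (St3gal5 0.02 without WT replicate 3 and 0.10 without Prmt5AKO replicate 1; A4galt -0.10 without Prmt5AKO replicate 2). B4galnt1, which elongates gangliosides, lay at 6.83 to 10.8 CPM in WT and 8.07 to 16.5 in Prmt5AKO, with 20.7% of its exon length shared with Slc26a10.

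The S1P genes divided between S1pr1 and the others. S1pr1, a receptor abundant on endothelial cells and lymphocytes, measured 99.0, 75.1 and 106 CPM in WT and 70.7, 46.6 and 47.5 CPM in Prmt5AKO. The genotypes did not overlap, Prmt5AKO replicate 1 coming nearest to WT, and the log2 fold change was -0.77 ± 0.28 (SE, limma unadjusted p = 0.025, adjusted p = 0.50) and -0.96 without Prmt5AKO replicate 1. It was -0.67 without Prmt5AKO replicate 2 (limma unadjusted p = 0.095). The 10 endothelial markers gave no gene at an unadjusted p under 0.05, summed to 842 to 1285 CPM in WT and 1037 to 1313 in Prmt5AKO, and had a median log2 fold change of 0.08. At that level 6 of the 8 T and NK cell markers were higher (4.79% of all genes) and 1 of the 5 B and plasma cell markers lower (3.93%). The part of these cells in the S1pr1 values was not tested. Spns2, the S1P exporter, measured 37.0, 42.9 and 31.5 CPM in WT and 33.4, 41.7 and 45.9 CPM in Prmt5AKO, with overlap (log2 fold change 0.12 ± 0.26, SE). S1pr2 lay at 15.3 to 27.0 CPM in WT and 17.5 to 25.7 in Prmt5AKO, and S1pr3 at 9.39 to 16.7 and 11.6 to 15.2 CPM, so the levels of both receptors in Prmt5AKO lay inside their WT ranges.

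The counts by role stand beside 8.72% of all genes tested at an unadjusted p under 0.05 and 14.4% without overlap. Of 16 synthesis genes tested, 3 had an unadjusted limma p under 0.05 (18.8%; 2 higher, 1 lower) and 5 did not overlap (31.2%; 2 above, 3 below), with a median log2 fold change of -0.20. Of 15 breakdown genes, 3 had such a p (20%; 1 higher, 2 lower) and 4 did not overlap (26.7%; 1 above, 3 below), with a median of -0.11. The 6 glycosylation genes had a median of -0.02, and the 4 S1P genes, with S1pr1 alone below, a median of 0.10.

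The wider pathway was described with 55 further genes, such as those of fatty acid elongation, lipid transfer, lysosomal glycosidases and later glycosyltransferases, of which 46 were in the table and 45 tested. None was called by limma (0 of 45), 3 had an unadjusted p under 0.05 (2 higher, 1 lower; 6.67%) and 8 did not overlap (5 above, 3 below; 17.8%), beside 8.72% and 14.4% of all genes tested, with a median log2 fold change of 0.18. Elovl3, a fatty acid elongase of brown and beige fat, measured 0.51, 0.57 and 5.59 CPM in WT and 16.9, 10.97 and 8.17 CPM in Prmt5AKO (log2 fold change 2.68 ± 0.70, SE; limma adjusted p = 0.365).

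Plpp1, a lipid phosphate phosphatase that can act on S1P outside cells, measured 39.9, 24.9 and 20.03 CPM in WT and 18.3, 16.2 and 12.4 CPM in Prmt5AKO (log2 fold change -0.79 ± 0.34, SE; limma adjusted p = 0.56). Elovl6, which lengthens palmitoyl-CoA, lay at 157 to 335 CPM in WT and 81.7 to 146 in Prmt5AKO, and Elovl4, an elongase of very long chains, at 0.34 to 0.95 and 0.98 to 1.99 CPM, both without overlap. St6galnac5, a ganglioside sialyltransferase, spanned 1.67 to 12.3 CPM in WT and 0.28 to 2.78 in Prmt5AKO.

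Marker lists of the cells in the depot are set beside these genes, and no marker gene was called. In bulk tissue, fewer cells of a type and less RNA per cell cannot be told apart. The 8 fibroblast and progenitor markers summed to 3593 to 5833 CPM in WT and 2233 to 2976 in Prmt5AKO. Of these, 5 (Pdgfra, Dpp4, Pi16, Dcn, Fbn1) were lower at an unadjusted p under 0.05, beside 3.93% of all genes tested. The 8 T and NK cell markers summed to 12.9 to 26.1 CPM in WT and 37.0 to 97.1 in Prmt5AKO. Of these, 6 were higher at that level, as were 4 of the 9 smooth muscle and pericyte markers, beside 4.79% of all genes tested. The smooth muscle and pericyte sums were 924 to 1585 CPM in WT and 1443 to 2744 in Prmt5AKO. The 10 adipocyte markers, which fit the labelled tissue, summed to 40229 to 56688 CPM in WT and 29415 to 45878 in Prmt5AKO with overlap. Cfd alone of them was lower at an unadjusted limma p under 0.05 (mean 13218 CPM in WT and 5366 in Prmt5AKO). Cfd and Pparg lay lower without overlap, and the other adipocyte markers overlapped. The sums of the 5 B and plasma cell markers (53.6 to 110 against 84.0 to 125 CPM), the 6 mesothelial markers (251 to 392 against 85.9 to 468) and the 3 epithelial markers in the table (11.8 to 25.7 against 3.90 to 33.0) also overlapped, and Mzb1, Krt14, Krt5 and Cdh1 were not in the table. Among these lists Ms4a1, a B cell marker, alone had an unadjusted p under 0.05, and it was lower in Prmt5AKO. The part of cell composition in the sphingolipid values was not tested.

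**Figure D5:**
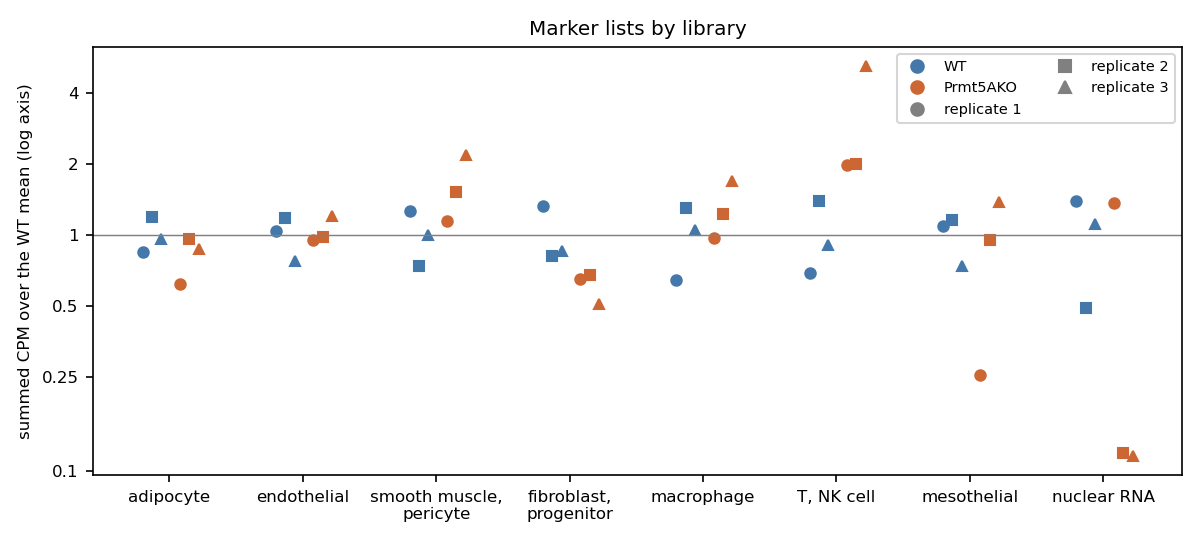
Summed CPM of 8 marker lists in each library, divided by the WT mean of that list (y axis, log scale; WT blue, Prmt5AKO orange, symbols for replicates). The fibroblast and progenitor sums of all 3 Prmt5AKO libraries lie below and the T and NK cell sums above all WT libraries, while the nuclear RNA sum of Prmt5AKO replicate 1 lies with WT replicates 1 and 3.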

How the data were processed

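RNA-seq of eWAT from 3 WT and 3 Prmt5AKO libraries was used. The authors trimmed reads with Trim Galore 0.6.0 after FastQC 0.11.9, aligned them to GRCm38 with STAR 2.7.10a, kept unique proper pairs, and assigned them to genes by featureCounts (Subread 2.0.1). The authors deposited a signal column per library. The columns sum to different totals and were therefore taken as CPM on effective library sizes. All values were whole multiples of 1 read's worth (within 0.05 read, 100% of values in each library). Reads recovered this way were used only in alternatives. A batch correction is mentioned in the paper, but neither it nor the labels say what the batches were. Deposited columns of the authors' own fold changes, likelihood ratios, p-values and FDR, and their gene and term lists, were not used.

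A gene was tested if 3 or more libraries reached 0.5 CPM (16109 of 16619). limma 3.58.1 was fitted to log2(CPM + 0.5) with lmFit and trended eBayes, genotype being its single term. Adjusted p-values are Benjamini-Hochberg values over all tested genes. Fold changes on this scale understate the change of low genes. The design had assumed plain CPM, and its test was kept. A call required both an adjusted p below 0.05 and an absolute log2 fold change above 0.5. Prmt5 was compared by an exact two-sided permutation test. Alternatives used R 4.3.3, edgeR 4.0.16 and DESeq2 1.42.0. The script was tested on simulated data. Positions and exon lengths came from GENCODE M21 on GRCm38, whereas the authors counted on another release; exon overlap was computed from the same annotation. CPM per kilobase divides by the union of a gene's exons.

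The members, roles and lists were chosen with earlier results of these data known. A member is given library by library if its genotypes do not overlap, if its unadjusted limma p is under 0.05 or if it is among the 2 highest of its role per kilobase; the others are given by range. Of the further sphingolipid genes, the 6 with the smallest p were to be named, and 1 of them is not reported here.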

Additional observations from a re-analysis of the deposited data

How the results depend on the processing

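Of 21 alternatives, the call of 0 of the 41 genes changed in 2. With the replicate block, the edgeR likelihood ratio test called 1 (Smpd1, adjusted p = 0.0229) and 2 of the 45 further genes (Elovl3, St6galnac5). With array weights limma called 26 of 41 and 21 of 45, but the estimation of weights did not converge, and 9322 of all genes (57.9%) were called in that fit. Of all genes tested, 129 were called by limma with the replicate block, 162 by the edgeR likelihood ratio test, 686 (4.26%) by that test with the block, 58 by the edgeR quasi-likelihood test with the block, 301 by DESeq2 and 84 without Prmt5AKO replicate 1 (0 to 84 with single libraries left out). The replicate numbers were not taken as pairs: the deviations of same-numbered libraries correlated at 0.68, 0.57 and -0.11, and Prmt5AKO replicate 3 correlated best with WT replicate 2 (0.53). Genes of the 41 at an unadjusted p under 0.05, an analysis added after the data were seen, numbered 13 with the replicate block in limma (19.8% of all genes), 12 with it in the edgeR likelihood ratio (20.1%) and quasi-likelihood (17.1%) tests, 35 with array weights (74.4%) and 2 to 16 with single libraries left out. Their median log2 fold change, -0.11, was -0.17 on plain CPM, 0.031 with array weights and -0.15 to 0.083 with single libraries left out.

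Over the 18 genes given library by library and the 21 alternatives, 376 values were computed, of which 359 kept direction and call and 11 became called, 10 of them with array weights. The alternative with the adjusted p alone reused the main fit, so its values could not differ. In most alternatives none of all genes tested was called, so a kept call there says little about these genes. Reversals were seen in 3 genes: Ormdl3 (0.26 with array weights, and -0.34 to 0.083 with single libraries left out), St3gal5 (0.031 with array weights, and -0.30 to 0.10) and A4galt (-0.10 to 0.18). Why these settings differ was not tested. The Prmt5 difference ran from -28.0 to -16.4 CPM with single libraries left out. With 3 libraries a genotype and a median standard error of 0.37 over all genes on the log2 scale, small differences were not detectable. Degs2, Cers1 and Sgms2 rest on few reads.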
